A study of Homo sapiens with 15 samples.

Results

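The genes described here are 9 antioxidant genes of the NRF2 pathway, picked by name from the 55773 rows of a table of normalized read counts: NFE2L2, KEAP1, NQO1, HMOX1, GCLM, GCLC, TXNRD1, SRXN1 and GSR. All 9 were in the table and all 9 passed the filter on low values in both experiments. The RNA-seq came from human HEK293 cells, an established embryonic kidney line, in 5 groups of 3 libraries. In the overexpression experiment, doxycycline (1 µg/mL, 24 h) was given to Flp-In T-REx 293 cells, in which a transgene is driven by a doxycycline-inducible promoter. The transgene coded for Flag/HA-ZC3H7B, for Flag/HA-ZC3H7A or, in the control, for the Flag/HA tag alone, and doxycycline is labelled in all 3 groups, the control included. ZC3H7A and ZC3H7B are zinc-finger proteins of a family that binds RNA. In the depletion experiment, Parental cells were wild type with a control shRNA (shCTR), and DD cells were ZC3H7A-KO with an shRNA against ZC3H7B. All depletion cells were grown in 5 µg/mL puromycin to select for the shRNA and taken off it 2 passages before collection. The sources used here do not say whether DD was made from 1 clone, nor whether its 3 libraries and those of Parental were separate cultures, so p-values there measure the spread between libraries. The 2 experiments used different library protocols and are compared only within themselves.

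NRF2, the product of NFE2L2, is the main transcription factor of the cellular response to oxidants and electrophiles. In unstressed cells KEAP1 holds NRF2 in the cytoplasm and presents it to the CUL3 ubiquitin ligase for destruction. Oxidized KEAP1 fails to do so, NRF2 accumulates, pairs with small MAF proteins and binds antioxidant response elements near genes for glutathione synthesis, thioredoxin reduction, quinone reduction and heme breakdown. NRF2 is thus set mainly through the stability of its protein, which mRNA levels do not report. Some of these genes are also driven by other factors, HMOX1 by the heme-sensing repressor BACH1 among them.

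The libraries held 45.5 to 57.6 M reads in overexpression and 12.2 to 15.5 M reads in depletion. ZC3H7A transcript rose 3.42-fold with its transgene, and ZC3H7B transcript rose 4.57-fold with its own. The other gene of the pair moved too: ZC3H7B rose 1.34-fold with ZC3H7A (limma adjusted p = 5.18e-06), and ZC3H7A fell 1.60-fold with ZC3H7B (adjusted p = 6.89e-06). In DD, ZC3H7B fell 5.96-fold, while ZC3H7A was 1658 ± 106 normalized counts against 1599 ± 78.7 in Parental (SD, n = 3 each). Reads from outside a deleted stretch do not check a knockout, so the ZC3H7A knockout has no check here. Of 7 genes of the neuronal lineage that HEK293 cells are known to express, 7 had a mean of at least 10 in each overexpression group and 6 in each depletion group. Summed markers of leukocytes stayed between 25.9 and 103 those of fibroblasts between 155 and 308 and those of endothelium between 6.54 and 29.5 normalized counts per library. Markers of keratin epithelium summed to 375 to 1550.4, of which KRT10 was nearly all, with KRT5 and KRT14 near 0. The summed neuronal-lineage genes were higher with ZC3H7A (41770.2 to 45225) and ZC3H7B (47616 to 50043) than in the control (30855 to 32108), and their part in the results was not tested. The list did not move as 1: VIM, which many cell types express, went from a mean of 7547 in the control to 13665 with ZC3H7A, UCHL1 from 12595 to 16837 and NEFL from 4782 to 4483. In bulk RNA, fewer cells expressing a gene and less of its RNA per cell cannot be told apart.

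The antioxidant response element has the core TGACNNNGC, where N is any base. It is shown here because it is the kind of site that NRF2 binds. RefSeq promoter windows (build GRCh38.p14, 250 bases before to 50 after each start, both strands searched) were found for 7 of the 9 genes, and HMOX1 and GSR had no entry. Of the 10 windows, 4 held the core, and they belonged to GCLM, TXNRD1 and KEAP1. Of all 35116 windows in that table, 13.3% held it. The matches that lie wholly before a start are printed with 10 flanking bases on each side, 5′ to 3′ in the orientation of the core, which is in capitals. TXNRD1, on the plus strand of chromosome 12, had them at the first of the 2 starts below on the gene's own strand and at the other on the opposite strand. GCLM is on the minus strand of chromosome 1 with the match on the opposite strand, and KEAP1 is on the minus strand of chromosome 19 with a match on each strand. Both KEAP1 matches lie before the same start, and the window of another KEAP1 start held no match.
GCLM, chr1:93909446-93909474, 34 bases before the start: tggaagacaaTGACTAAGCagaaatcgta
TXNRD1, chr12:104215670-104215698, 99 bases before a start: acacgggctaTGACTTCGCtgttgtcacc
TXNRD1, chr12:104286920-104286948, 102 bases before another start: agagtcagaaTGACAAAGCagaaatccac
KEAP1, chr19:10502807-10502835, 54 bases before the start: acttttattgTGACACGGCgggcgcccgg
KEAP1, chr19:10502784-10502812, 31 bases before the start: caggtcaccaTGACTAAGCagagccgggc
A match is a description of letters and not evidence of binding, and sites outside these windows were not searched. The 3 genes with the core in a searched window did not move as 1 group. KEAP1 rose in all 3 comparisons with a control, GCLM fell in 2 of them, and TXNRD1 changed in all 3 in differing directions, as described below.

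The comparisons used limma on log2(value + 1), and a gene was called when its Benjamini-Hochberg adjusted p over all tested genes was under 0.05. Fold changes are log2 differences on that scale unless given as a fold. With ZC3H7A, 4 of the 9 genes rose (KEAP1, NQO1, GSR and SRXN1), 2 fell (TXNRD1 and NFE2L2) and 3 were not called. Among all 17669 genes tested, 34.7% rose and 41.2% fell with ZC3H7A, so most genes of these cells were called. With ZC3H7B, 6 rose (HMOX1, KEAP1, NQO1, SRXN1, GSR and TXNRD1), 2 fell (NFE2L2 and GCLM) and 1 was not called, against 32% and 37.6% of all genes. In DD, 1 rose (KEAP1), 4 fell (HMOX1, TXNRD1, GSR and GCLM) and 4 were not called, against 14.7% and 14.8% of all 18491 genes tested. The median log2 fold change of the 9 was 0.21 with ZC3H7A, 0.34 with ZC3H7B and -0.28 in DD, where the medians of all genes were -0.07, -0.06 and 0.01. In all, 5 genes were called in the same direction in both overexpressions, which share their control libraries, and TXNRD1 was called in opposite directions. With ZC3H7A, 4 of the 9 genes lay above the control and 2 below it in every library, where 77.9% of all genes showed no overlap in either direction. With ZC3H7B it was 6 above and 2 below (77.1% of all genes), and in DD 1 above and 6 below (43% of all genes). Separation of libraries was thus common among all genes, in overexpression above all.

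**Figure D1:**
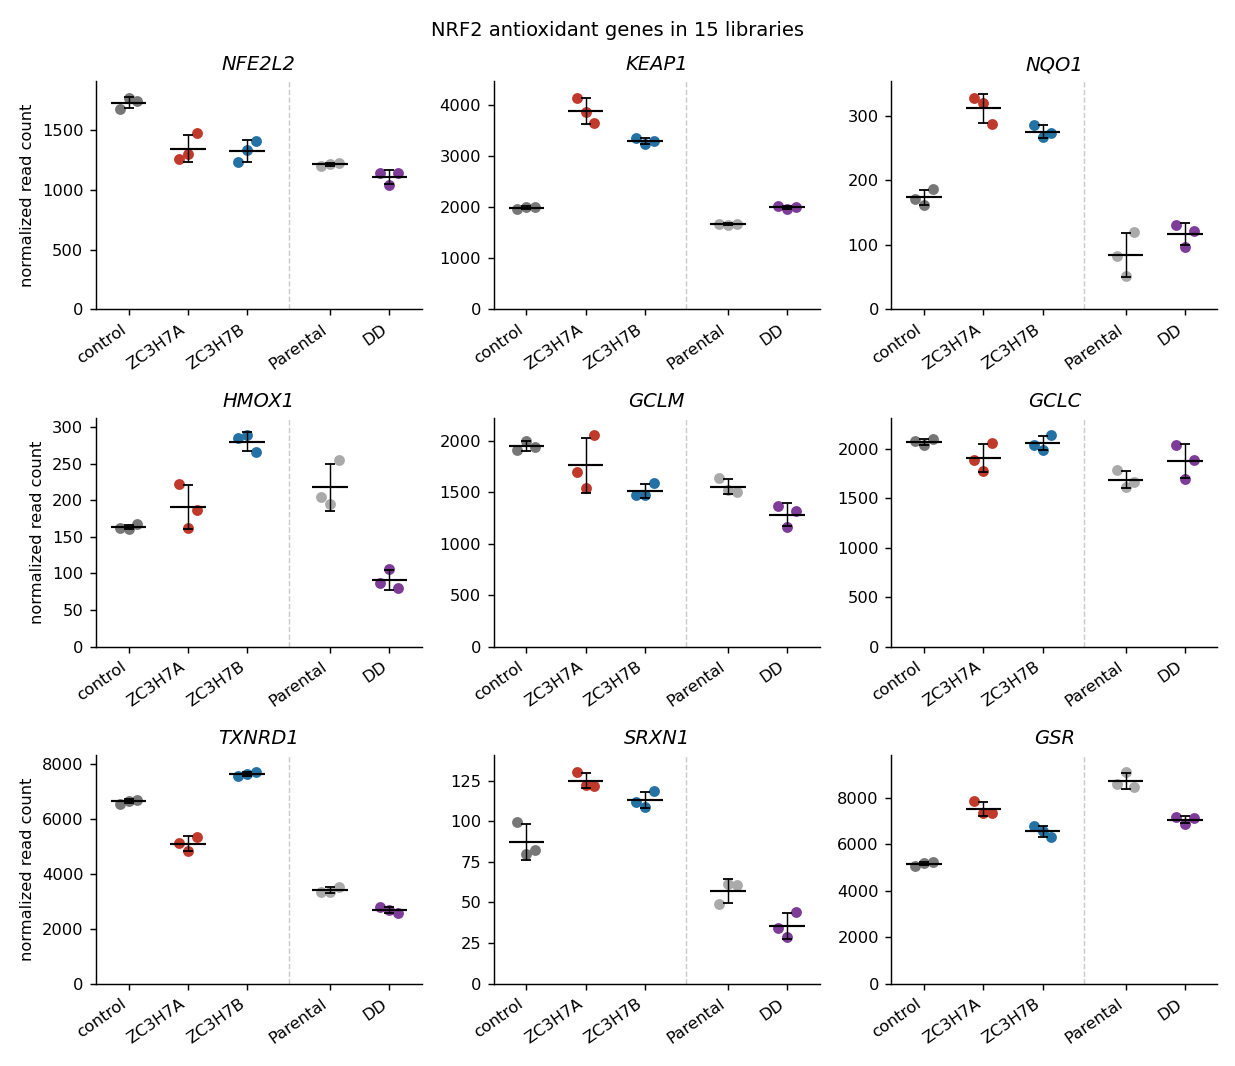
Normalized counts (vertical axis, from 0) of the 9 genes in each library (points) of the 5 groups, with a wide bar at each group mean and error bars of 1 SD (n = 3). KEAP1 and GSR are higher in every ZC3H7A and ZC3H7B library than in every control library, and HMOX1 is lower in every DD library than in every Parental library.

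NFE2L2 fell and KEAP1 rose in both overexpressions, but the NFE2L2 fall did not hold under every setting. With each library's codon trend removed, a setting described further on and chosen after seeing the data, NFE2L2 was at 0.09 with ZC3H7A (limma adjusted p = 0.0432) and at -0.02 with ZC3H7B (adjusted p = 0.678). NFE2L2 (ENSG00000116044, chromosome 2), the gene of NRF2 itself, had 1680, 1769 and 1739 normalized counts in the control libraries. With ZC3H7A it had 1255, 1303 and 1474, and with ZC3H7B 1230, 1332 and 1410. Every overexpression library lay below every control library, and the 2 overexpressions overlapped. NFE2L2 fell by 0.37 with ZC3H7A (SE 0.066, limma adjusted p = 2.74e-04) and by 0.39 with ZC3H7B (adjusted p = 2.23e-04). In depletion it had 1201, 1215 and 1227 normalized counts in Parental and 1140.0, 1042 and 1144 in DD. The DD libraries were all lower, but the log2 difference of -0.13 (SE 0.076) was not called (adjusted p = 0.216). An antisense gene, AC079305.1, shares 6.66% of the NFE2L2 transcript in GENCODE 29, and the sources used here do not state whether reads were counted by strand.

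KEAP1 (ENSG00000079999, chromosome 19), the inhibitor of NRF2, had 1955, 2006 and 1993 normalized counts in the control. It had 4129, 3852 and 3640 with ZC3H7A and 3352, 3223 and 3284 with ZC3H7B. The 3 groups did not overlap, with the control lowest and ZC3H7A highest. KEAP1 rose 1.95-fold with ZC3H7A (log2 0.96, SE 0.048, limma adjusted p = 7.63e-09), the largest change among the 9 genes there, and 1.66-fold with ZC3H7B (0.73, adjusted p = 1.05e-07). The level with ZC3H7A exceeded that with ZC3H7B by 0.24 (adjusted p = 0.00172). In depletion it had 1676, 1639 and 1673 in Parental and 2022, 1957 and 1997 in DD, again without overlap. KEAP1 rose by 0.26 in DD (SE 0.066, adjusted p = 0.0112), and it was the gene among the 9 that rose in all 3 comparisons with a control. The DD call was lost without DD replicate 1 (0.25, adjusted p = 0.0561).

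A ratio of 2 genes in 1 library does not depend on how libraries are scaled. Per kilobase of transcript, the ratio of KEAP1 to NFE2L2 was 1.11 ± 0.014 in the control, 2.80 ± 0.398 with ZC3H7A and 2.41 ± 0.200 with ZC3H7B (SD, n = 3 each). It was 1.32 ± 0.023 in Parental and 1.74 ± 0.067 in DD. Each altered group lay above its own control group without overlap. An exact 2-sided permutation test gave p = 0.1 for each, the smallest that 3 libraries against 3 can give (0.133 adjusted over the 8 ratio comparisons computed). The inhibitor's transcript thus stood higher against that of its target in all 3 altered groups, by amounts that this exact test cannot call. The 2 genes lie far apart in codon makeup, with 17.0% of KEAP1 and 61.3% of NFE2L2 codons ending in A or T. Among genes with known codon content, the median change ran with that share in both overexpressions, as described further on. The ratio was not computed with the codon trend removed, and the part of codon content in it was not tested.

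NQO1 (ENSG00000181019, chromosome 16) encodes a reductase that takes quinones to hydroquinones in a single step and is a standard readout of NRF2. It was scarce in these cells, with 172, 163 and 186 normalized counts in the control. It had 328, 320.2 and 287 with ZC3H7A and 286, 267 and 273 with ZC3H7B. All libraries of both overexpressions were above the control. NQO1 rose 1.79-fold with ZC3H7A (0.84, SE 0.075, limma adjusted p = 7.84e-07) and 1.59-fold with ZC3H7B (0.67, adjusted p = 7.74e-06). In depletion it had 82.2, 51.8 and 119.8 in Parental and 131, 97.1 and 122 in DD. These groups overlapped, each library held 21 to 69 reads of the gene, and the difference of 0.53 (SE 0.272) was not called (adjusted p = 0.169). The value rested on single Parental libraries: it was 0.82 and called without replicate 3 (adjusted p = 0.0118) and 0.22 without replicate 2 (adjusted p = 0.545). An antisense gene, AC092115.2, shares 19.7% of the NQO1 transcript.

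HMOX1 (ENSG00000100292, chromosome 22) encodes the inducible heme oxygenase, which opens heme to biliverdin, carbon monoxide and iron. It had 162, 161 and 167 normalized counts in the control, against 223, 162 and 187 with ZC3H7A and 286, 289 and 266 with ZC3H7B. The ZC3H7B libraries stood above all others, and ZC3H7A replicate 2 lay among the controls. HMOX1 rose 1.71-fold with ZC3H7B (0.77, SE 0.099, limma adjusted p = 2.14e-05). With ZC3H7A the difference was 0.21 (adjusted p = 0.0739), and it depended on the library left out, at 0.32 and called without ZC3H7A replicate 2 (adjusted p = 0.00579) and 0.09 without ZC3H7A replicate 1 (adjusted p = 0.339). It was called with TMM scaling, edgeR and DESeq2 (adjusted p 0.025 to 0.0477), and with libraries scaled to all their reads it was 0.10 (adjusted p = 0.339). ZC3H7A was lower than ZC3H7B by -0.57 (adjusted p = 5.99e-04). In depletion HMOX1 had 204, 195 and 255 in Parental and 87.1, 107 and 80.04 in DD. These values came from 79 to 117 reads per Parental library and 38 to 46 reads per DD library. The groups were far apart, and HMOX1 fell 2.37-fold in DD (-1.25, SE 0.174, adjusted p = 2.79e-04), the largest called change among the 9 genes in any comparison with a control. It thus moved in opposite directions with more ZC3H7B and in the double depletion.

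**Figure D2:**
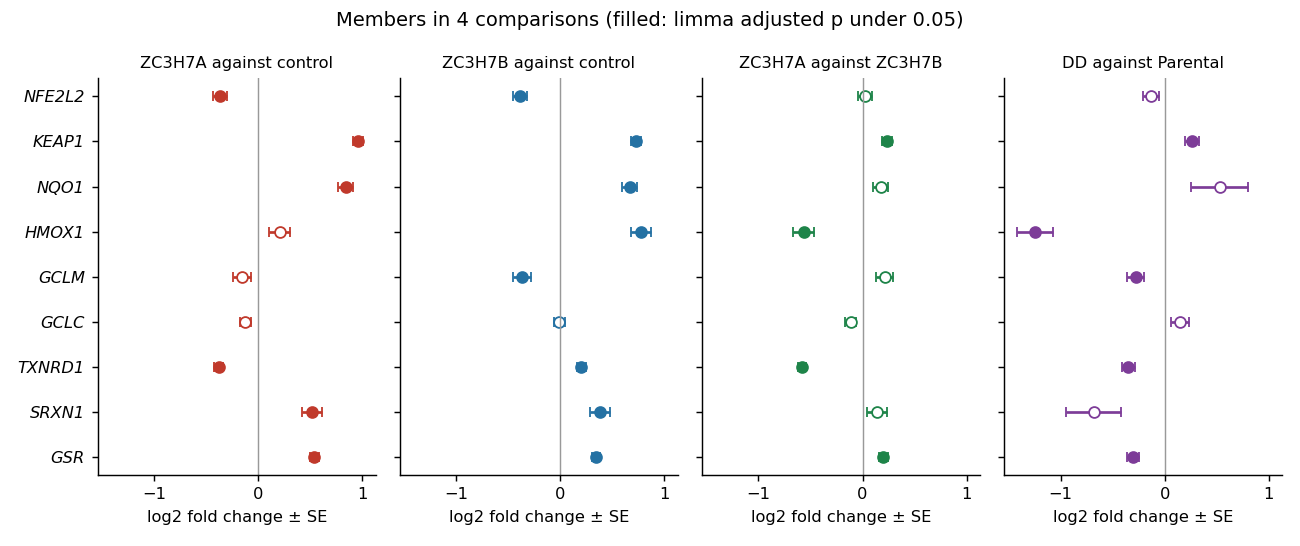
Log2 fold change of each of the 9 genes (horizontal axis, bars are 1 SE from limma) in 4 comparisons (each overexpression against control, ZC3H7A against ZC3H7B, and DD against Parental), with filled points for called genes. HMOX1 lies at 0.77 with ZC3H7B and at -1.25 in DD, and TXNRD1 lies at -0.38 with ZC3H7A and 0.20 with ZC3H7B.

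The glutathione genes split within their own enzyme. Glutamate-cysteine ligase makes the first, rate-limiting bond of glutathione and has a catalytic subunit, GCLC (ENSG00000001084, chromosome 6), and a modifier subunit, GCLM (ENSG00000023909, chromosome 1), that makes the catalytic one more efficient. GCLM had 1908, 2002 and 1939 normalized counts in the control, against 1697, 1538 and 2057 with ZC3H7A and 1472, 1469.8 and 1592 with ZC3H7B. All ZC3H7B libraries were below the control, while ZC3H7A replicate 3 was above it. GCLM fell by 0.37 with ZC3H7B (SE 0.084, limma adjusted p = 0.00194). The difference with ZC3H7A was -0.16 (adjusted p = 0.113). It was -0.27 and called without ZC3H7A replicate 3 (adjusted p = 1.21e-04), -0.06 without ZC3H7A replicate 2 (adjusted p = 0.465), and -0.26 and called with libraries scaled to all their reads (adjusted p = 0.0191). In depletion GCLM had 1643, 1521 and 1503 in Parental and 1369, 1161 and 1321 in DD. It fell by 0.28 in DD (SE 0.084, adjusted p = 0.0252), with no overlap, but the call was lost without Parental replicate 1 or 2 or without DD replicate 2 or 3 (adjusted p 0.0541 to 0.118).

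GCLC was the gene among the 9 that was called in no comparison. It had 2080.5, 2041 and 2101 normalized counts in the control, against 1885, 1779.6 and 2054 with ZC3H7A and 2043, 1992 and 2139 with ZC3H7B. All groups overlapped. The log2 difference from control was -0.12 with ZC3H7A (limma adjusted p = 0.0526) and -0.01 with ZC3H7B (adjusted p = 0.858), the latter changing sign under other scalings. The ZC3H7A difference was called without ZC3H7A replicate 3 (-0.18, adjusted p = 0.00101), with libraries scaled to all their reads (-0.23, adjusted p = 0.00294), with a filter of at least 50 (adjusted p = 0.0496) and with the replicate number as a block (adjusted p = 0.0236). Without ZC3H7A replicate 2 it was -0.076 (adjusted p = 0.207). In depletion it had 1783, 1617 and 1662 in Parental and 2038, 1696 and 1885 in DD, a difference of 0.15 (adjusted p = 0.207). The ratio of GCLM to GCLC per kilobase was 0.738 ± 0.028 in the control, 0.724 ± 0.056 with ZC3H7A and 0.576 ± 0.0096 with ZC3H7B (SD, n = 3 each). It was 0.724 ± 0.014 in Parental and 0.538 ± 0.011 in DD. The modifier subunit was thus lower against the catalytic one, without overlap, both with ZC3H7B and in DD, each at the smallest p of 0.1 in the exact permutation test, whereas ZC3H7A overlapped the control (exact p = 0.7).

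GSR (ENSG00000104687, chromosome 8), the reductase that returns oxidized glutathione to its working form with NADPH, was abundant. It had 5073, 5201 and 5232 normalized counts in the control, against 7848, 7349 and 7356 with ZC3H7A and 6766, 6569 and 6313 with ZC3H7B. The 3 groups did not overlap. GSR rose 1.45-fold with ZC3H7A (0.54, SE 0.041, limma adjusted p = 2.25e-07) and 1.27-fold with ZC3H7B (0.34, adjusted p = 1.43e-05), and ZC3H7A exceeded ZC3H7B by 0.20 (adjusted p = 0.00206). In depletion GSR had 8593, 9097 and 8468 in Parental and 7183, 6878 and 7126 in DD. It fell by 0.30 in DD (SE 0.061, adjusted p = 0.00308), and it was the gene among the 9 that was called up in both overexpressions and down in depletion.

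TXNRD1 (ENSG00000198431, chromosome 12) encodes the cytosolic thioredoxin reductase, a selenoprotein that keeps thioredoxin reduced. Of the 9 genes it had the lowest adjusted p between ZC3H7A and ZC3H7B. It had 6549.7, 6652 and 6693 normalized counts in the control, against 5122, 4814 and 5356 with ZC3H7A and 7557, 7627 and 7696 with ZC3H7B. Every ZC3H7A library was below and every ZC3H7B library above the control. TXNRD1 fell by 0.38 with ZC3H7A (SE 0.042, limma adjusted p = 4.59e-06) and rose by 0.20 with ZC3H7B (adjusted p = 9.74e-04). The direct difference, ZC3H7A against ZC3H7B, was -0.58 (adjusted p = 5.32e-07). In depletion it had 3353, 3353 and 3523 in Parental and 2772, 2677 and 2576 in DD, and it fell by 0.35 (SE 0.065, adjusted p = 0.00181). With the codon trend removed, the ZC3H7A difference was -0.01 and not called (adjusted p = 0.738), while the DD difference was -0.38 (adjusted p = 0.00152).

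SRXN1 (ENSG00000271303, chromosome 20) encodes sulfiredoxin, which repairs overoxidized peroxiredoxins, and it was the lowest of the 9 genes. It had 99.7, 79.6 and 82.5 normalized counts in the control, against 130.2, 123 and 122 with ZC3H7A and 112, 109 and 119 with ZC3H7B. Both overexpressions lay above the control in every library. SRXN1 rose 1.43-fold with ZC3H7A (0.52, SE 0.095, limma adjusted p = 3.19e-04) and 1.30-fold with ZC3H7B (0.38, adjusted p = 0.00364), and neither was called with the codon trend removed (0.14 and 0.12, adjusted p = 0.221 and 0.294). In depletion it had 48.8, 61.6 and 61.0 in Parental and 34.1, 28.4 and 44.2 in DD, from 12 to 28 reads per library. The DD libraries were all lower, and the difference of -0.68 (SE 0.264) was not called (adjusted p = 0.0718). The same-strand coding gene AL121758.1 shares 85.0% of the SRXN1 transcript in GENCODE 29, so its counts are uncertain wherever reads were split or dropped between them.

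Between the 2 overexpressions, 4 of the 9 genes were called: KEAP1 and GSR were higher and HMOX1 and TXNRD1 lower with ZC3H7A than with ZC3H7B. Of all genes, 23.9% were higher and 20.4% lower in that comparison. In every library, 4 of the 9 were above and 2 below ZC3H7B, where 49.2% of all genes showed no overlap. NFE2L2 (0.02), SRXN1 (0.14), NQO1 (0.17), GCLM (0.21) and GCLC (-0.11) were not called, with limma adjusted p between 0.0588 and 0.829. TXNRD1 and GSR were the most abundant of the 9 per kilobase, at 63.5 ± 0.38 and 60.9 ± 0.69 reads per kilobase per M reads in the control (SD, n = 3). KEAP1 (25.3 ± 0.24), NFE2L2 (22.8 ± 0.50), GCLC (20.5 ± 0.31) and GCLM (15.1 ± 0.34) followed. HMOX1 (3.38 ± 0.054), NQO1 (2.24 ± 0.15) and SRXN1 (1.22 ± 0.16) were the lowest. With ZC3H7A, KEAP1 (45.8 ± 2.1) and TXNRD1 (45.4 ± 2.7) stood level within their spread, as did NQO1 (3.74 ± 0.21) and HMOX1 (3.65 ± 0.53). GSR led in both depletion groups, at 91.5 ± 2.9 in Parental and 76.4 ± 1.9 in DD, and SRXN1 was last in all 5 groups.

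The 9 genes differ in codon makeup, measured here as the share of codons that end in A or T. Among 19454 coding genes the median share was 39.2%. NFE2L2 had 61.3%, TXNRD1 59.1%, GCLM 54.7% and GCLC 52.0%, and the 3 genes that fell in an overexpression (NFE2L2, TXNRD1 and GCLM) are among these 4, although TXNRD1 rose with ZC3H7B. NQO1 had 43.8% and GSR 41.6%, near the middle and above the median, and both rose in both overexpressions, NQO1 by 0.84 and 0.67. HMOX1 had 20.1%, KEAP1 17.0% and SRXN1 15.3%, and each of these rose in at least 1 overexpression. The central 90 coding bases of 4 genes, taken from the 2 ends of this order, are printed 5′ to 3′ from GENCODE 29. Each codon's last base is in capitals where it is A or T. The same stretch of NQO1, not printed, had 14 of 30 such codons.
NFE2L2, coding bases 862 to 951, 17 of 30 codons: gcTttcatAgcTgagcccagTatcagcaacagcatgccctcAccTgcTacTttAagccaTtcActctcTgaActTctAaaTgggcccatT
TXNRD1, coding bases 703 to 792, 22 of 30 codons: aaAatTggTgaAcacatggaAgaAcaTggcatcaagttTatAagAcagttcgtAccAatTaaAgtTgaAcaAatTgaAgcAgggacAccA
KEAP1, coding bases 892 to 981, 0 of 30 codons: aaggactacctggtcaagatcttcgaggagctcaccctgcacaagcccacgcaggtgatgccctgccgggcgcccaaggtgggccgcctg
SRXN1, coding bases 160 to 249, 2 of 30 codons: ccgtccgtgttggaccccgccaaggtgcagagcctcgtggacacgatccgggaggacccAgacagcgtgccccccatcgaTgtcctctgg
Codon content was known for 76.8% of the genes tested in overexpression and 71.5% in depletion, too few for a check over all genes. Among the genes that had it, between the fifth of genes with the lowest A or T share and the fifth with the highest, the median log2 fold change went from 0.37 to -0.60 with ZC3H7A and from 0.23 to -0.49 with ZC3H7B. In DD it went from 0.04 to 0.09.

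The 9 genes were then compared after each library's trend with that codon share was taken out, a setting chosen after seeing the data. With ZC3H7A, KEAP1 (0.59), NQO1 (0.80) and GSR (0.46) were still called up by limma. SRXN1 (0.14, adjusted p = 0.221) and TXNRD1 (-0.01, adjusted p = 0.738) were no longer called, and NFE2L2 changed sign to 0.09 (adjusted p = 0.0432). With ZC3H7B, KEAP1 (0.47), NQO1 (0.60), HMOX1 (0.53), GSR (0.24) and TXNRD1 (0.50) were called up and GCLM (-0.20) down. NFE2L2 (-0.02, adjusted p = 0.678) and SRXN1 (0.12, adjusted p = 0.294) were not called there. The difference between the overexpressions kept its sign and call for HMOX1 (-0.67) and TXNRD1 (-0.51). In DD the values stayed close, with HMOX1 at -1.25 and KEAP1 at 0.26. The GC content of the transcripts also differed. It was 60.3% in KEAP1, 58.1% in HMOX1 and 53.6% in SRXN1, and from 37.3% (GCLM) to 48.2% (GSR) in the other genes. The parts of codon content and of GC content in these results were not tested further.

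**Figure D3:**
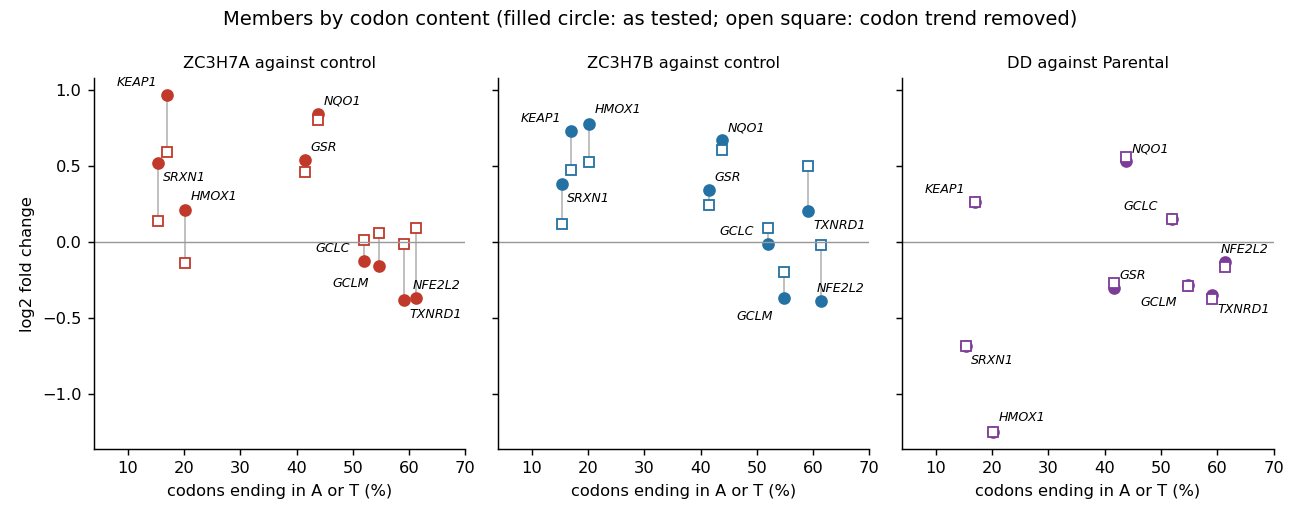
Log2 fold change (vertical axis) of the 9 genes against the share of their codons that end in A or T in percent (horizontal axis), in 3 comparisons, as tested (filled circles) and with each library's codon trend removed (open squares). In both overexpressions NFE2L2 moves from below -0.3 to near 0, whereas in DD circles and squares nearly coincide.

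Around the 9 genes, 93 further genes of the pathway were counted from 8 lists. With ZC3H7A, 49 of 81 tested genes rose, 16 fell and 16 were not called (median 0.27), where 34.7% of all genes rose and 41.2% fell (median -0.07). With ZC3H7B, 50 of 81 rose, 20 fell and 11 were not called (median 0.25), against 32% and 37.6% of all genes (median -0.06). In DD, 9 of 80 rose, 25 fell and 46 were not called (median -0.05), against 14.7% and 14.8% of all genes (median 0.01). The share that rose in DD was thus not above that of all genes. With a filter of at least 50, 5616 of all 13727 genes rose and 5721 fell with ZC3H7A, and 5291 rose and 5343 fell with ZC3H7B. For these lists the codon trend was not taken out, and all genes were not matched to them in level. The part of either in these counts was not tested. The genes named below are those with the lowest limma adjusted p in their list.

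Among the 14 partners and regulators of NRF2, 9 rose and 4 fell in each overexpression, and 2 rose and 4 fell in DD. The share that rose in overexpression was above that of all genes (34.7% with ZC3H7A, 32% with ZC3H7B) and the share that fell below it (41.2% and 37.6%), and the 2 rises in DD were near the 14.7% of all genes. CUL3, the scaffold of the ligase that destroys NRF2, fell from 4036 ± 13.9 to 2012 ± 203 normalized counts with ZC3H7A (-1.01, limma adjusted p = 6.70e-08, n = 3 each). BACH1, the repressor that competes for the same elements, fell from 1687 ± 7.03 to 873 ± 129 (-0.96, adjusted p = 9.54e-07). With ZC3H7B, CUL3 had 3408 ± 222 and BACH1 1219 ± 93.7 normalized counts, and every library of both was also below the control. Both were lower with ZC3H7A than with ZC3H7B, by -0.76 and -0.49 (adjusted p = 2.49e-06 and 7.33e-04). NFE2L1, a relative of NRF2, rose by 0.59 with ZC3H7A and 0.28 with ZC3H7B. DPP3, a KEAP1-binding protein, rose by 0.77 and 0.63. RBX1, of the same list, rose by 0.35 with ZC3H7B (limma adjusted p = 2.53e-05). RBX1 had 1255, 1329 and 1356 normalized counts in the control and 1659, 1628 and 1642 with ZC3H7A, without overlap. In DD the relative NFE2L3 fell by 0.41 and the ligase adaptor BTRC by 0.32.

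Of 6 genes that supply NADPH, 6 rose with ZC3H7A and 5 with ZC3H7B, while in DD 4 fell and 1 rose. Of all genes, 34.7% and 32% rose in the overexpressions, and 14.8% fell and 14.7% rose in DD. PGD, of the pentose phosphate pathway, rose by 0.72 with ZC3H7B and fell by 0.57 in DD (limma adjusted p = 1.31e-07 and 8.22e-04). TKT, a transketolase, rose by 0.81 with ZC3H7A and 0.71 with ZC3H7B. IDH1 was the NADPH gene that rose in DD (0.35, adjusted p = 0.0102).

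Of 10 genes of heme and iron handling, 8 rose and 1 fell with ZC3H7A, 5 rose and 2 fell with ZC3H7B, and 1 rose and 1 fell in DD. The DD counts were near the shares of all genes (14.7% rose, 14.8% fell), and the rises in overexpression were above them (34.7% with ZC3H7A, 32% with ZC3H7B). FTL, the ferritin light chain, went from 4039 ± 165 normalized counts in the control to 9640 ± 647 with ZC3H7A and 10787 ± 215 with ZC3H7B (1.25 and 1.42, limma adjusted p = 2.18e-09 and 2.09e-09, n = 3 each). FTH1, the heavy chain, rose by 0.51 and 0.43 and fell by 0.37 in DD. Ferritin genes have processed copies in the genome, so their counts are uncertain. BLVRB, a biliverdin reductase, rose by 0.90, 0.74 and, in DD, 0.42.

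The thioredoxin and peroxiredoxin list had 13 tested genes, of which 7 rose and 1 fell with ZC3H7A, 10 rose and 1 fell with ZC3H7B, and 1 rose and 4 fell in DD. Of all genes, 34.7% rose and 41.2% fell with ZC3H7A, 32% and 37.6% with ZC3H7B, and 14.7% and 14.8% in DD. The peroxiredoxins PRDX1, PRDX2 and PRDX6, which break down peroxides, rose in both overexpressions, PRDX2 by 0.82 and 0.78. SESN2, a stress-induced sestrin, rose by 0.55 with ZC3H7B and fell by 0.84 in DD (limma adjusted p = 2.68e-06 and 2.78e-05). SESN1, another sestrin, fell by 0.88 with ZC3H7A (adjusted p = 3.09e-08), the lowest adjusted p of the list there. It rose by 0.28 in DD (adjusted p = 0.00867). TXNIP, an inhibitor of thioredoxin, fell by 0.60 in DD (adjusted p = 9.32e-04).

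Of 20 tested genes of glutathione supply and use, 10 rose and 6 fell with ZC3H7A, 8 rose and 10 fell with ZC3H7B, and 3 rose and 7 fell in DD. The shares of all genes were 34.7% and 41.2%, 32% and 37.6%, and 14.7% and 14.8%, so the rises with ZC3H7B and in DD were near those of all genes and the falls with ZC3H7A below them. GSTP1, a glutathione transferase, had 1908 ± 78.4 normalized counts in the control, 3326 ± 224 with ZC3H7A and 783 ± 27.3 with ZC3H7B. It rose by 0.80 with ZC3H7A and fell by 1.28 with ZC3H7B (limma adjusted p = 1.02e-07 and 6.62e-09), and it rose by 0.92 in DD (adjusted p = 5.31e-06). GGT1, which splits extracellular glutathione, fell by 2.35 with ZC3H7A, fell by 2.54 with ZC3H7B and fell by 2.38 in DD. GPX4, which reduces lipid peroxides, rose by 0.77 and 0.93 in the overexpressions. SLC7A11, the cystine importer that feeds glutathione synthesis and is also a target of the amino acid response, had 1468, 1011 and 797 normalized counts in Parental and 197, 178 and 223 in DD. It fell 5.31-fold there (-2.41, adjusted p = 3.27e-06), the largest called fall among the glutathione genes in DD.

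Detoxification genes gave 5 rises and 2 falls of 10 with ZC3H7A, 7 and 2 of 10 with ZC3H7B, and 0 and 3 of 9 in DD. Of all genes, 34.7% rose and 41.2% fell with ZC3H7A, 32% and 37.6% with ZC3H7B, and 14.7% and 14.8% in DD. AKR1B1, an aldo-keto reductase, rose by 0.59 and 0.62 in the overexpressions. PTGR1, a reductase of prostaglandins and leukotrienes, had 39, 42 and 54 reads in the Parental libraries and 1 read in all of DD. The ratio of normalized reads was 145 in favour of Parental, with a 95% exact interval of 25.7 to 5789 that covers counting error only. Of 3 tested superoxide dismutase and catalase genes, 2 rose and 1 fell with ZC3H7A, 2 rose with ZC3H7B, and 1 rose and 1 fell in DD. SOD1 and CAT, the catalase, rose in both overexpressions. In DD, SOD2, the mitochondrial superoxide dismutase, rose by 0.72 (limma adjusted p = 2.44e-05) and CAT fell by 0.35. Of 5 other genes often listed as NRF2 targets, 2 rose with ZC3H7A and 4 with ZC3H7B, and 1 fell in each comparison with a control. TRIM16 and TRIM16L rose in both overexpressions. GDF15, a stress hormone, fell by 2.17 with ZC3H7A and 2.33 with ZC3H7B (adjusted p = 6.02e-08 and 5.90e-08).

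**Figure D4:**
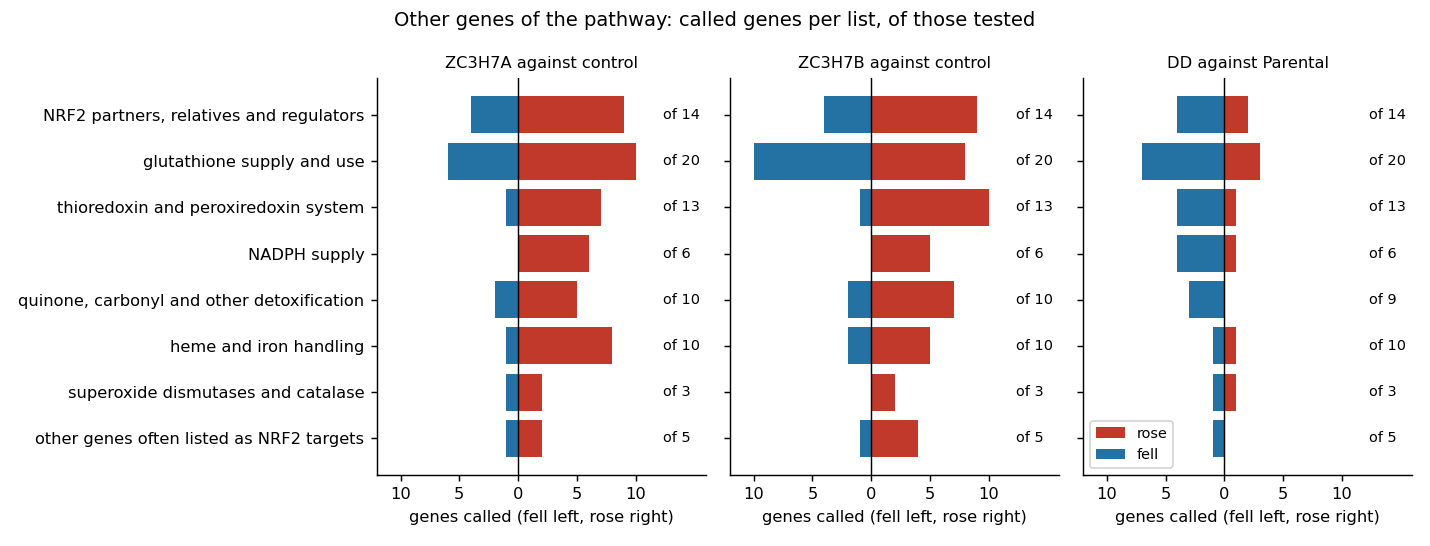
Number of tested genes that rose (to the right) or fell (to the left) in each of the 8 pathway lists with ZC3H7A, with ZC3H7B and in DD, called by limma at an adjusted p under 0.05. In the NADPH list 6 genes rise with ZC3H7A and 5 with ZC3H7B, and 4 fall in DD.

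For each of the 9 genes, the gene most like it over the 15 libraries was found by the root mean square difference of log2 profiles, centred on the control group of each experiment. Of about 11391 candidates, GSR was closest to POLR3K (0.035), NFE2L2 to SLC18B1 (0.046), GCLC to C18orf25 (0.049), KEAP1 to TOMM40 (0.055) and TXNRD1 to PRDM4 (0.059). GCLM was closest to ZDHHC23 (0.074), SRXN1 to RNF122 (0.126), HMOX1 to PDE4A (0.169) and NQO1 to TPX2 (0.197). The 3 genes with the fewest reads thus had the least close neighbours. No member of the 9 was the nearest gene of another, and the closest pair among them was NFE2L2 with GCLM, at 0.132.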

How the data were processed

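Poly(A) RNA-seq was analysed from the deposited table, whose signal values are counts that the authors divided by a size factor per library. In every library 100% of values were whole multiples of 1 read within 0.01, so whole reads could be recovered. The submitters' processing notes name STAR 2.7.10b, HTSeq, DESeq2 and hg19. Their roles, the gene annotation and strand settings are not stated in the sources used here. Per the labels' protocols, overexpression cells were lysed in a hypotonic buffer as 3 independent replicates and made into TruSeq libraries, and a company made the depletion libraries. From the deposited values, log2(value + 1) was tested with limma 3.58.1 (trend, R 4.3.3) on genes with at least 10 in at least 3 libraries. The 9 overexpression libraries shared a fit and the 6 depletion libraries had their own. Rows with a repeated name (4) were left out. Samples were grouped by their labels. The script was tested on simulated data.

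The 9 genes and all lists were chosen with earlier results of these data known. Genes named were the 9, the targeted genes, genes of the pathway lists and the most alike gene of each of the 9. Pathway genes were drawn from up to 4 called genes per list and comparison. These had the lowest adjusted p among genes whose higher group averaged at least 100, and not all of them are named. The markers and lists were matched by symbol. Alternatives covered pseudocount, filter, scaling, edgeR 4.0.16 and DESeq2 1.42.0 on recovered reads, a replicate block, the libraries fitted and each library left out. Codon content came from GENCODE 29 and covered 76.8% of tested genes in overexpression and 71.5% in depletion, and all 9 genes. Sequences are from RefSeq (GRCh38.p14) and GENCODE 29, and hg19 coordinates were not used here.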

Additional observations from a re-analysis of the deposited data

How the results depend on the processing

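The counts of genes among the 9 that rose or fell kept within 1.5 times under most settings. With ZC3H7A the number that fell was 2, where 7274 of all 17669 genes fell. It was 4 when libraries were scaled to all their reads (8379 of 17669), a setting that shifted the median of all genes by -0.10. Leaving out 1 library gave 2 to 4, with 4 without ZC3H7A replicate 3 (7508 of 17522). With the codon trend removed it was 0 (7066 of 17669), and it was 1 with ZC3H7B (6783 of 17669). Between the overexpressions, 5 rose with the codon trend removed, where 4742 of 17669 genes rose. In DD the number that rose was 0 to 2 when 1 library was left out. It was 2 without Parental replicate 3 (3563 of 18078 genes) and 0 without DD replicate 1 (1560 of 18182). The cause of these changes was not tested.

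Of the single differences recomputed, 137 of 153 kept direction and call with ZC3H7A, 146 of 153 with ZC3H7B, 140 of 153 between the overexpressions and 136 of 143 in DD. Some changed sign. With the codon trend removed and ZC3H7A, NFE2L2 went to 0.089, HMOX1 to -0.14, GCLM to 0.061 and GCLC to 0.012. GCLC with ZC3H7B went to 0.048 with TMM scaling, 0.048 with edgeR, 0.041 with DESeq2 and 0.089 with the codon trend removed, and ranged from -0.040 to 0.012 without single libraries. NFE2L2 between the overexpressions went to -0.0071 with TMM scaling, -0.0035 with scaling to all reads and -0.0052 with edgeR, and ranged from -0.048 to 0.068 without single libraries. None of these but NFE2L2 at 0.089 (limma adjusted p = 0.0432) was called.

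The replicate numbers did not pair the libraries throughout. Same-numbered libraries correlated at -0.065 to 0.299 in overexpression and -0.05 to -0.015 in depletion. In the 2 experiments, 4 of 9 and 0 of 6 libraries correlated best with their own number. The highest value was between ZC3H7A replicate 3 and ZC3H7B replicate 3. ZC3H7B replicate 1 correlated at 0.130 with ZC3H7A replicate 1 and at 0.170 with ZC3H7A replicate 2. Whether the overexpressions share a replicate effect was not tested. With the number as a block, 6157 genes rose and 7321 fell with ZC3H7A, against 6134 and 7274 without it. The block added GCLC with ZC3H7A (-0.12, adjusted p = 0.0236) and GCLM between the overexpressions (0.21, adjusted p = 0.0225) to the calls by limma among the 9.

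In depletion, libraries held 12 to 69 reads of NQO1 or SRXN1, and whether depth accounts for their missing calls was not tested.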

Other observations

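Of the further pathway genes, 26 of 81 were higher and 18 lower with ZC3H7A than with ZC3H7B, where 23.9% of all genes were higher and 20.4% lower, so the lower ones were near the share of all genes. GSTP1 was 4.24-fold higher with ZC3H7A (log2 2.08, limma adjusted p = 1.82e-10). GSTM2, another glutathione transferase, had 142, 140.3 and 137 normalized counts with ZC3H7A and 3.92, 4.30 and 5.20 with ZC3H7B, where the control had 36.9, 46.4 and 40.7. The GSTM genes are near copies of each other, so these counts are uncertain. SESN2 was lower with ZC3H7A by -0.64 (adjusted p = 1.90e-06) and PGD by -0.51 (adjusted p = 5.81e-06). TFRC, the transferrin receptor, was higher by 0.35 (adjusted p = 2.18e-04). GSTM2 in depletion had 20.0, 44.4 and 28.3 in Parental and 125, 104 and 94.8 in DD, and these groups did not overlap.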
